A study of Mus musculus with 2 samples.

Results

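Receptors for glutamate, GABA, and glycine carry most fast signaling between neurons. Glutamate opens the cation channels of AMPA, kainate, and NMDA receptors and excites the postsynaptic cell, while GABA and glycine open chloride channels and inhibit it. Metabotropic glutamate receptors and GABA-B receptors act more slowly, through G proteins. In the hippocampus, NMDA receptors start long-term potentiation and AMPA receptors express it, and GABA-A receptors hold the excitability of pyramidal cells in check. Most of these receptors are assembled from several subunits, each encoded by its own gene. Here, 47 of these subunit genes were examined for peaks in a Cut&Tag experiment. They are 24 glutamate receptor genes, described below as excitatory, and 23 GABA and glycine receptor genes, described as inhibitory. They were taken by gene family, and they make up 47 of the 21887 protein-coding genes in the RefSeq table of GRCm38.p6.

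Cut&Tag maps the binding of a protein along the genome. An antibody directs a transposase to the protein in permeable nuclei, and the transposase cuts and tags the DNA beside it for sequencing. The study asked which genes are bound by Smad4, a transcription factor that carries TGF-β and BMP signals to the nucleus. There was 1 library made with antibody against Smad4 and 1 made with IgG as the control, both from nuclei of mouse hippocampus. The labels give the tissue but not the genotype, age, or number of mice behind each library, and peak positions hold no expression level against which the tissue could be checked. The peaks come from 1 deposited list of 5326. GEO holds that list under the IgG library, and its name gives no antibody, so no peak below is assigned to Smad4 or to IgG, and the antibodies were not compared. With 1 list there is no replicate and no test of any difference. The intervals below are 95% exact intervals that cover counting error alone.

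A gene was counted as having a peak if a peak touched it or came within 3 kb of it. By this rule 15 of the 47 receptor genes (31.9%, interval 19.1% to 47.1%) had a peak, and 32 did not. Of all protein-coding genes, 13.0% had one. The 15 genes held 31 peaks: 5 genes had 1 peak, 6 had 2, 2 had 3, and 2 had 4. Among excitatory genes 11 of 24 (45.8%, 25.6% to 67.2%) had a peak, and among inhibitory genes 4 of 23 (17.4%, 4.95% to 38.8%). These intervals overlap. All 6 receptor genes on the X chromosome, which are Gria3, Gabra3, Gabre, Gabrq, Glra2, and Glra4, were without a peak, and of all X-linked protein-coding genes 5.59% had one, against 13.5% on the autosomes.

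**Figure D1:**
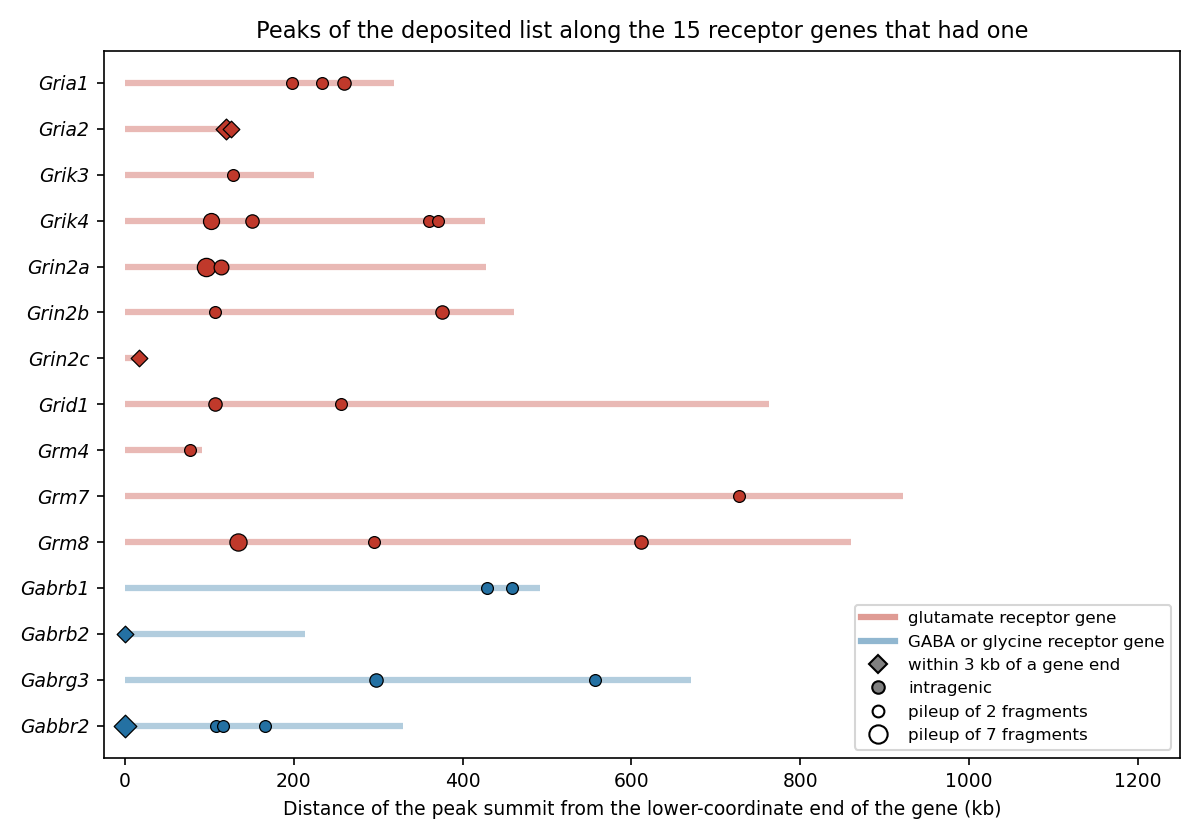
Each line is 1 of the 15 receptor genes with a peak, drawn to scale from its lower-coordinate end (x axis, kb). Circles are intragenic peaks, diamonds are the 5 gene-end peaks (no more than 3 kb from an end), and marker size grows with the pileup, the number of overlapping fragments, which ranged from 2 to 7. Of the 26 circles, 24 lie more than 50 kb from both ends.

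Among the AMPA receptor subunits, which form the channels of fast excitatory transmission, Gria1 and Gria2 had peaks and Gria3 and Gria4 had none. Gria2, whose subunit sets the calcium permeability of the channel, had both of its peaks at the 5′ end. The stronger one, at chr3:80801269-80801517, lay inside the gene and 1318 bp downstream of the start site that the RefSeq promoter table lists. It was enriched 4.54-fold over the local background (q = 0.000589), and its pileup, the number of fragments that overlap at the summit, was 4. Fold values here have 1 added to both pileup and background, so fold, q-value, and pileup are not separate measures. The other Gria2 peak, at chr3:80806906-80807385, lay outside the gene, 2679 bp beyond its 5′ boundary, enriched 2.88-fold with a pileup of 2. No other receptor gene had more than 1 peak near an end. In Gria1 all 3 peaks were intragenic, between 58.8 and 121 kb from the nearer end. The strongest, at chr11:57270798-57271417, had a pileup of 3 and was enriched 3.77-fold (q = 0.00285), and the others had a pileup of 2.

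NMDA receptors combine the obligatory subunit encoded by Grin1 with subunits that set gating, and Grin2a, Grin2b, and Grin2c of the latter had peaks. The strongest peak of any receptor gene was in Grin2a, at chr16:9663763-9663955. It had a pileup of 7 and was enriched 7.01-fold (q = 1.38e-07), which placed it at rank 233 of the 5326 peaks by q-value, a rank it shared with other peaks. A further Grin2a peak, at chr16:9681916-9682123, had a pileup of 4 and a 4.46-fold enrichment (q = 0.00124). Both lay in the same part of the gene, 95.9 and 114 kb from its lower-coordinate end. Grin2b had a peak with a pileup of 3 and a 3.77-fold enrichment (q = 0.00285) at chr6:136089260-136089477, and 1 with a pileup of 2, both more than 80 kb inside the gene. In Grin2c, a subunit gene of 18.1 kb, the single peak at chr11:115265858-115266084 lay 1159 bp downstream of the listed start site, with a pileup of 2 and a 2.88-fold enrichment (q = 0.0272). The same peak lay 1940 bp from the 3′ end of the neighboring gene Fdxr, which encodes ferredoxin reductase of mitochondria. Grin1, Grin2d, Grin3a, and Grin3b had no peak. The peak nearest to Grin1 was 13350 bp away, with a pileup of 6.

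Kainate receptor subunits act on both sides of the synapse. Grik4, which needs a partner subunit to form a channel, had 4 peaks, as many as any receptor gene. All were intragenic. The strongest, at chr9:42619306-42619641, had a pileup of 5 and was enriched 4.99-fold (q = 0.000589), and the others had pileups of 3, 2, and 2. Grik3 had 1 peak with a pileup of 2, and Grik1, Grik2, and Grik5 had none. Grik2, a gene of 696 kb, was the longest receptor gene without a peak, and the nearest peak was 1700324 bp away. Grid1, a delta receptor gene that works in synapse organization, had 2 intragenic peaks with pileups of 3 and 2.

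Of the metabotropic glutamate receptors, Grm8, Grm4, and Grm7, which encode presynaptic receptors that restrain transmitter release, had peaks. Grm8 had 3, and the one at chr6:27408647-27408875 had a pileup of 6 and was enriched 6.13-fold (q = 3.99e-06). The others in Grm8 had pileups of 2 and 3. Grm4 and Grm7 each had 1 peak with a pileup of 2. No peak was found for Grm2, Grm3, Grm5, or Grm6, and Grm5, which encodes a mainly postsynaptic receptor, is 551 kb long.

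On the inhibitory side, peaks were found in the GABA-A subunit genes Gabrb1, Gabrb2, and Gabrg3 and in the GABA-B subunit gene Gabbr2. Gabbr2, whose product couples the GABA-B receptor to its G protein, held 4 of the 9 inhibitory peaks. Its strongest peak, at chr4:46662214-46662470, covered the 3′ boundary of the gene, 329244 bp from the listed start site, with a pileup of 5 and a 5.30-fold enrichment (q = 6.83e-05). It was the strongest of the 5 gene-end peaks and the only one at a 3′ end. The other 3 were intragenic with a pileup of 2. Gabrb2 had 1 peak, at chr11:42419259-42419592, which covered the 5′ boundary of the gene and lay 848 bp upstream of the nearest listed start site. Its pileup was 2 and its enrichment 2.83-fold (q = 0.0439), and it also lay inside Gm34591, a long noncoding RNA gene that overlaps Gabrb2 and is listed on the opposite strand. Gabrg3 had an intragenic peak at chr7:57014385-57014690 with a pileup of 3 and a 3.70-fold enrichment (q = 0.00633) and a weaker one with a pileup of 2. Gabrb1 had 2 peaks, both with a pileup of 2. None of the GABA-A genes Gabra2, Gabra3, Gabra4, Gabra5, Gabra6, Gabrg1, Gabrd, Gabre, Gabrp, and Gabrq had a peak, nor did Gabrr1, Gabrr2, and Gabrr3, the rho subunits known from the retina. Gabbr1, the partner that binds GABA in the GABA-B receptor, and the glycine receptor genes Glra1, Glra2, Glra3, Glra4, and Glrb also had none. The 3 kb limit fell between these peaks. Among peaks that lay outside a gene, the one just within the limit was the outer Gria2 peak at 2679 bp. For receptor genes without a peak, the nearest peaks beyond the limit were 5326 bp from Gabrr1 and 5890 bp from Gabrr2, each with a pileup of 2.

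The sequences at the start sites of the 3 genes with a peak near the 5′ end are shown because those peaks lie beside them and not on them. Each is the RefSeq promoter window (GRCm38.p6), from 250 bases before the start site to 50 after, read along the gene. The Gria2 window is chr3:80802786-80803085 on the minus strand, 1269 bp from the nearer peak. The Grin2c window is chr11:115267194-115267493 on the minus strand, 1110 bp from its peak. The Gabrb2 window, the one of 3 listed for this gene that is nearest to the peak, is chr11:42420190-42420489 on the plus strand, 598 bp from it. Capitals mark CAGAC or its reverse complement GTCTG, a form of the Smad binding element.
Gria2: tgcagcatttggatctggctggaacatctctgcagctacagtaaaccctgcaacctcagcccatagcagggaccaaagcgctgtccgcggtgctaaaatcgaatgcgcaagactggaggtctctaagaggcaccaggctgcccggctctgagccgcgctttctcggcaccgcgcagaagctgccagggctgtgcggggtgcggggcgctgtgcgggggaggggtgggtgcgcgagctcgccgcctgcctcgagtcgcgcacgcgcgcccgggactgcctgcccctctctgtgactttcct
Grin2c: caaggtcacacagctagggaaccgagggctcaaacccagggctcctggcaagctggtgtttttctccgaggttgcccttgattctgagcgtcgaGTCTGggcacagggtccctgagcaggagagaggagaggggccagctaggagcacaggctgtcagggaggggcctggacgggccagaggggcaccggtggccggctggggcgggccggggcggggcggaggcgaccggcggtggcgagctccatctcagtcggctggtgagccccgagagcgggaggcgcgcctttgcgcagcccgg
Gabrb2: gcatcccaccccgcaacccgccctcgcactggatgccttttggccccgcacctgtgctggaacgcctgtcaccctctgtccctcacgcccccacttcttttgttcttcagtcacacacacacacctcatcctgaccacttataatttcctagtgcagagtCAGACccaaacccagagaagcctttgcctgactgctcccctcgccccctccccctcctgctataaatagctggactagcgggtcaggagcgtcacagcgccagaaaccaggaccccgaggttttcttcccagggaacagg

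CAGAC was found once in the Grin2c window and once in this Gabrb2 window, and not in that of Gria2. It is a frequent word: on either strand it was present in 49.6% of all 32851 promoter windows in the table and in 19 of the 43 windows (44.2%) listed for 36 of the receptor genes. The GC-rich Smad motif GGCGCC was present in 11.9% of all windows and in 8 of the 43 (18.6%), and in none of the 3 shown. The palindrome GTCTAGAC, the full-length Smad binding element, contains neither of these words, and it was present in 0.213% of all windows and in none of the 43. No peak overlapped any of the 43 windows, and of all 32851 windows 440 (1.34%) were overlapped by one, a share at which less than 1 of 43 would be. The receptor genes Gria1, Gria3, Grik1, Grin2a, Grin2b, Grin3a, Grid1, Grm4, Grm5, Gabrd, and Glra1 had no entry in this table.

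Gene-end peaks were then set against intragenic ones. A peak was called gene-end if it lay within 3 kb of either end of the gene, and intragenic if it lay inside and farther away. A gene-end peak was found for 4 of the 47 receptor genes (8.51%, 2.37% to 20.4%), namely Gria2, Grin2c, Gabrb2, and Gabbr2. Of all protein-coding genes, 5.30% had one, and at the share of their length classes 2.67 of the 47 would have one. The numbers were 2 of 24 excitatory genes (8.33%) and 2 of 23 inhibitory genes (8.70%). By peaks, 5 of the 31 (16.1%, 5.45% to 33.7%) were gene-end and 26 were intragenic. Of the 3153 peaks that touched or neighbored any protein-coding gene, 963 (30.5%, 28.9% to 32.2%) were gene-end. The share was lower in long genes. For protein-coding genes over 200 kb, 50 of 911 peaks (5.49%) were gene-end, and for receptor genes of this length 2 of 27 (7.41%, 0.910% to 24.3%). The intragenic receptor peaks lay 14.2 to 298 kb from the nearer end, with a median of 107 kb, and 24 of the 26 lay more than 50 kb inside.

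Receptor genes are long. Their median length was 137 kb, against 17.2 kb for all protein-coding genes, and it was 259 kb for excitatory and 88.6 kb for inhibitory genes. The share of genes with a peak rose with length in the whole annotation, from 1.37% in the shortest of 10 equal classes of protein-coding genes to 43.3% in the longest, which begins at 109 kb. This longest class held 16 excitatory genes, of which 9 had a peak, and 9 inhibitory genes, of which 4 had one. If each receptor gene had a peak as often as protein-coding genes of its length class, 13.9 of the 47 would have one, and 15 did. For excitatory genes the corresponding number was 7.96, with 11 found, and for inhibitory genes 5.99, with 4 found. With 100 classes in place of 10, which follow length more closely, the numbers were 16.5, 10.3, and 6.19. The count for all 47 lay close to that given by the length classes. Of the 6 X-linked receptor genes 5 are inhibitory. On the autosomes, 7.53 of 23 excitatory genes would have a peak (9.71 with 100 classes) and 11 did. Of 18 inhibitory genes 4.8 would have one (5.03 with 100 classes) and 4 did. The excitatory count lay above both of its numbers and the inhibitory count below both of its own, and neither difference was tested.

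**Figure D2:**
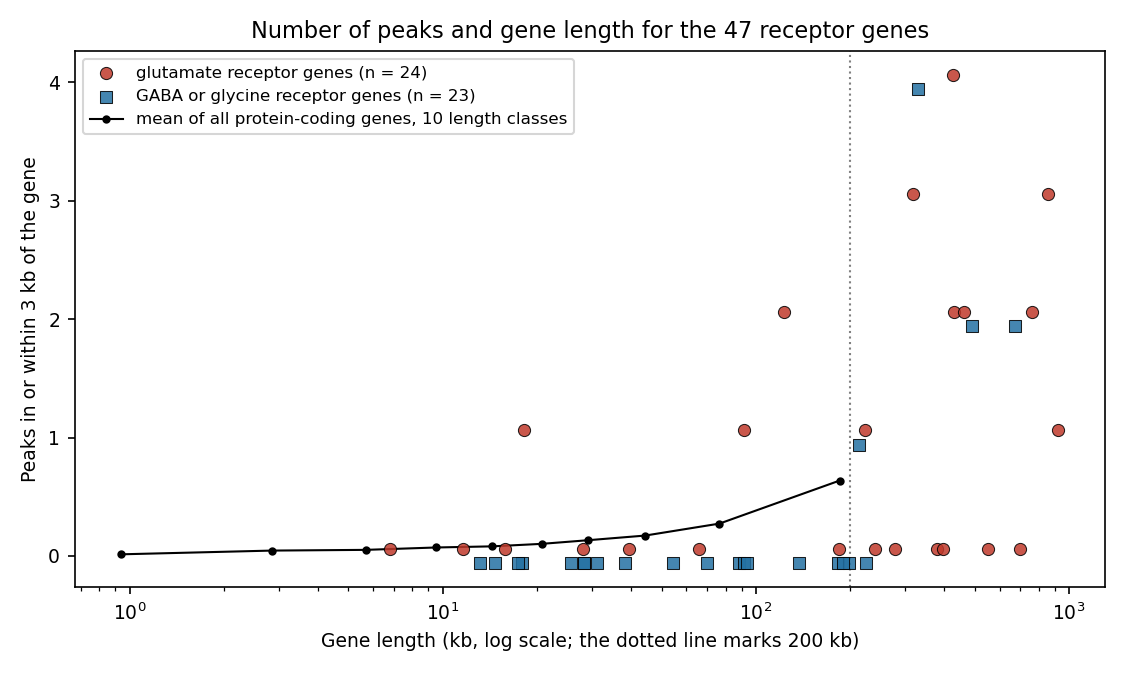
Number of peaks per gene (y axis, with the groups offset slightly so that points do not hide each other) against gene length in kb (x axis, log scale) for the 24 excitatory and 23 inhibitory genes. The black line is the mean over all protein-coding genes in each of 10 length classes, which reached 0.636 peaks in the longest. Genes with 3 or 4 peaks were all over 200 kb long.

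Genes were also divided at 200 kb, a limit chosen after the values were seen. Over 200 kb, 12 of 19 receptor genes (63.2%, 38.4% to 83.7%) had a peak, and of protein-coding genes of this length 56.2% did. The median length was 427 kb for these receptor genes and 325 kb for these protein-coding genes. At the share of their length classes 8.22 of the 19 would have a peak (11.2 with 100 classes). The 12 comprised 8 of 14 excitatory genes and 4 of 5 inhibitory genes, the exception being the X-linked Gabra3. The excitatory genes over 200 kb without a peak were Gria3, Gria4, Grik1, Grik2, Grm3, and Grm5. At or below 200 kb, 3 of 28 receptor genes (10.7%, 2.27% to 28.2%) had a peak. At the share of their length classes 5.72 would have one (5.25 with 100 classes). The share of all protein-coding genes up to 200 kb was 10.9%, but these have a median length of 15.9 kb, against 38.7 kb for the 28. The 3 genes were Gria2, Grin2c, and Grm4, all excitatory. Of the 18 inhibitory genes up to 200 kb, 0 had a peak, with an upper bound of 18.5%, and at the share of their length classes 3.82 would have one (3.48 with 100 classes). These numbers take no account of the X chromosome, which holds 4 of the 18 (Gabre, Gabrq, Glra2, and Glra4). Glra2 (199 kb), Glra3 (190 kb), and Gabra5 (183 kb) lie just below the limit. For the 10 excitatory genes up to 200 kb, 1.90 would have one, and 3 did. Across the 47 genes, length and number of peaks had a Spearman's rho of 0.56, and it was 0.44 for the excitatory and 0.64 for the inhibitory genes. Across all protein-coding genes it was 0.31. These values describe genes of 1 list, which are not replicates.

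**Figure D3:**
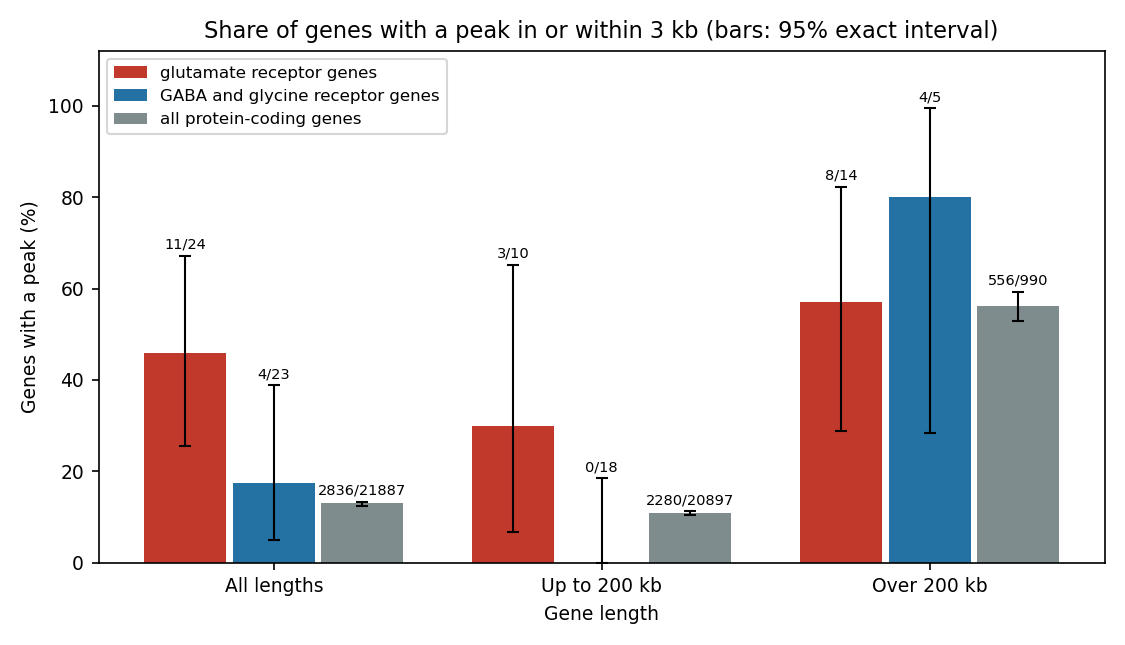
Share of genes with a peak (y axis, %) for excitatory genes, inhibitory genes, and all protein-coding genes, over all lengths and on each side of 200 kb. Numbers above the bars are genes with a peak out of all genes, and error bars are 95% exact binomial intervals. The excitatory and inhibitory intervals overlap in each group.

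Peaks were also counted per megabase of gene. Receptor genes held 30 peaks inside their boundaries in 10.8 Mb, or 2.78 per Mb (1.88 to 3.97), and all protein-coding genes held 2.74 per Mb (2.64 to 2.85). Excitatory genes had 2.79 per Mb (1.73 to 4.27) and inhibitory genes 2.77 per Mb (1.27 to 5.26). These totals were nearly equal, with 4 of the inhibitory peaks in Gabbr2. Among ionotropic subunits alone, excitatory genes had 3.31 per Mb (1.89 to 5.37) and inhibitory genes 1.73 (0.561 to 4.03), and these intervals overlapped. Over 200 kb, excitatory genes had 2.59 per Mb (1.54 to 4.10) and inhibitory genes 4.67 (2.13 to 8.86), against 2.12 (1.98 to 2.26) for protein-coding genes. The inhibitory interval overlapped that of protein-coding genes but did not include the 2.12. Up to 200 kb, excitatory genes had 3 peaks or 5.14 per Mb (1.06 to 15.0) and inhibitory genes had 0 peaks, which allows up to 2.79 per Mb, against 3.17 (3.03 to 3.31) for protein-coding genes. Of these 18 inhibitory genes 4 are X-linked, and X-linked protein-coding genes of all lengths had 1.07 per Mb (0.794 to 1.42). In both bands the excitatory and inhibitory intervals overlapped. With only peaks of a q-value of at most 0.01, the values over 200 kb were close, at 0.864 per Mb (0.317 to 1.88) for excitatory, 1.04 (0.126 to 3.75) for inhibitory, and 0.779 for protein-coding genes. Among families, NMDA receptor genes had 4.29 per Mb (1.39 to 10.0), AMPA 3.64 (0.993 to 9.33), kainate 2.77 (0.898 to 6.45), and metabotropic glutamate receptor genes 1.86 (0.603 to 4.33). GABA-A genes other than rho had 2.28 per Mb (0.741 to 5.32). The pair of GABA-B genes had 11.2 per Mb (3.05 to 28.6), with all 4 peaks in Gabbr2. Among the 9 families, only theirs had an interval that did not include the value of all protein-coding genes. It rests on Gabbr2 alone, and with only peaks of a q-value of at most 0.01 the value was 2.80 per Mb (0.0708 to 15.6), an interval that includes the 1.13 of all protein-coding genes. The 5 glycine receptor genes had 0 peaks in 0.578 Mb, which allows up to 6.38 per Mb. Long genes had a lower density in the whole annotation. Over 300 kb, also a limit chosen after the values were seen, autosomal protein-coding genes had 1.98 per Mb (1.82 to 2.14). The 14 receptor genes of this length, all autosomal, had 25 peaks or 3.25 per Mb (2.10 to 4.80), and the intervals just overlapped. That of the receptor genes did not include the 1.98, and the difference was not tested. With only peaks of a q-value of at most 0.01, the values were 0.729 (0.636 to 0.833) and 1.04 (0.449 to 2.05).

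**Figure D4:**
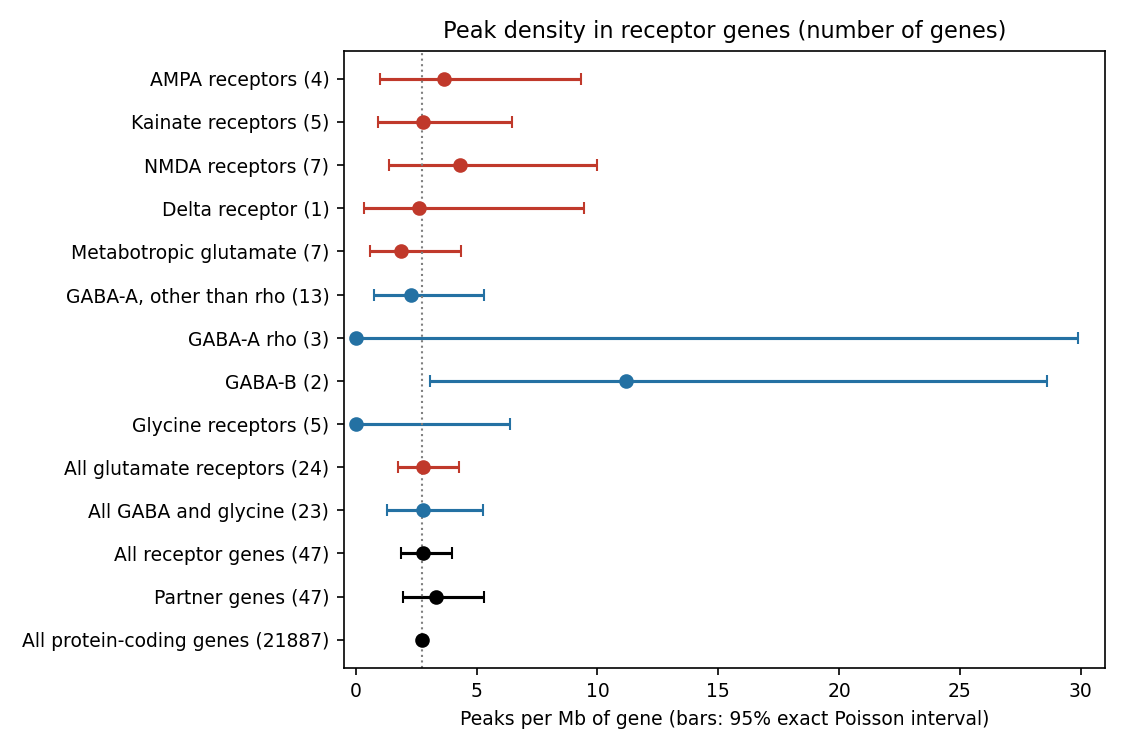
Peaks inside genes per Mb of gene (x axis) for each receptor family (red for glutamate, blue for GABA and glycine, black for other groups), with the number of genes in parentheses. Error bars are 95% exact Poisson intervals and the dotted line is the 2.74 per Mb of all protein-coding genes. The excitatory and inhibitory totals lie close to the line.

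Most receptor peaks rested on few fragments. Of the 31, 19 (61.3%, 42.2% to 78.2%) had a pileup of 2, 6 had 3, 2 had 4, 2 had 5, and 2 had 6 or more. In the whole list 53.4% had a pileup of 2. A q-value of at most 0.01 was reached by 9 receptor peaks (29.0%, 14.2% to 48.0%), against 38.6% of the whole list. They lay in the excitatory genes Gria1, Gria2, Grik4, Grin2a, Grin2b, and Grm8 and the inhibitory genes Gabrg3 and Gabbr2. These 8 genes are 17.0% of the 47, and 6.32% of protein-coding genes had a peak at this limit. Over 200 kb the shares were 36.8% of receptor genes and 27.9% of protein-coding genes, with median lengths of 427 and 325 kb. Per Mb of gene, receptor genes had 0.835 such peaks (0.382 to 1.59), below the 1.13 (1.06 to 1.19) of protein-coding genes but with an interval that includes it. With a q-value of at most 0.001, 5 genes were left, which were Gria2, Grik4, Grin2a, Grm8, and Gabbr2, and 3.55% of protein-coding genes had such a peak. Over 200 kb, 4 of 19 receptor genes and 167 of 990 protein-coding genes had one. Among the 5 gene-end peaks 2 passed 0.01, and among the 26 intragenic peaks 7 did. For all protein-coding genes the shares were 49.9% of gene-end peaks and 38.5% of intragenic ones. In excitatory genes 54.5% of peaks had a pileup of 2 and 31.8% passed 0.01, and in inhibitory genes 77.8% and 22.2%, from 22 and 9 peaks.

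A list of 47 partner genes was examined in the same way. It holds 19 auxiliary subunits of these receptors, 11 proteins that anchor or move them, and 17 enzymes and transporters of the transmitters. Of these, 13 (27.7%, 15.6% to 42.6%) had a peak, and at the share of their length classes 11.3 would have one. Their density was 3.31 per Mb (1.93 to 5.30). By group, 5 of 19 auxiliary subunits, 3 of 11 anchors, and 5 of 17 enzymes and transporters had a peak, and length classes gave 5.01, 3.07, and 3.26. Gene-end peaks were found for 3 partner genes (6.38%), near the 2.74 that length classes gave. They were Cacng8, Cacng7, and Kctd16. Cacng8 and Cacng7 encode TARPs, which escort AMPA receptors. The Cacng8 peak lay 2706 bp outside the gene at its 3′ end, with a pileup of 4 and a q-value of 0.000589. A peak 2536 bp outside the 5′ end of Cacng7 had a pileup of 3 and a q-value of 0.0319. Kctd16, a GABA-B receptor auxiliary subunit, had a peak of pileup 2 inside the gene and 822 bp from an end. Intragenic peaks with a q-value of at most 0.01 were found in Shisa6, an AMPA receptor auxiliary subunit (pileups of 4 and 5), in Gphn, which encodes the inhibitory scaffold gephyrin (pileup of 6, q-value of 1.75e-06), in Grip1, an AMPA receptor anchor (pileup of 5), and in Slc1a2, the main glial glutamate transporter (pileup of 4).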

How the data were processed

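Per the labels, the reads were processed with BWA, MACS2, and HOMER against mm10, with no versions given. The study's methods state that uniquely mapped reads were kept and that MACS2 was run with a cutoff of 0.05. The authors' deposited list gives each peak a score, a fold enrichment over the local background, a −log10 p-value, and a −log10 q-value. The score repeated the −log10 q-value, multiplied by 10 and cut to a whole number, in all 5326 peaks, and the largest q-value was 0.0472. The list holds no library totals, so depth was not used. The pileup was taken as the whole number that gives back the deposited fold and −log10 p-value, the latter to within 0.005, or 0.5% of values above 1, and one was found for 5326 of 5326 peaks. For this the fold was read as the pileup plus 1, divided by the local background plus 1. A fold therefore cannot exceed the pileup plus 1.

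Peak intervals were compared with the gene boundaries of the RefSeq table for GRCm38.p6, the same assembly as mm10 apart from patches, with an overlap of at least 1 base and a window of 3 kb. A peak near several genes counted for each of them. Protein-coding genes were sorted into 10 classes by length, and the share of each class with a peak was summed over the receptor genes. Shares have Clopper-Pearson intervals and densities have exact Poisson intervals, both at 95%. The recovery and the overlap step were checked on made-up peaks. Python 3.11.15, NumPy 2.4.6, pandas 2.3.3, SciPy 1.17.1, and matplotlib 3.10.9 were used.

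The receptor genes, the partner list, and the window were chosen with earlier results of these data known. All receptor genes were named. Position, pileup, fold, and q-value were given for the strongest peak of those with a gene-end peak, a peak at q of 0.01 or less, or the most peaks. Distance and pileup were given for the peak outside a gene just within 3 kb and, for genes without a peak, for those just beyond it. Partner genes were named where they had a gene-end peak or one with a q-value of at most 0.01. Peak sequences were not used here. Stricter q-values, other windows, summits, and a larger overlap were tried as alternatives.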

Additional observations from a re-analysis of the deposited data

How the results depend on the processing

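Few fragments per peak limit these results, since 61.3% of the receptor peaks had a pileup of 2. With peaks of a q-value of at most 0.01, 8 receptor genes had a peak (6 excitatory and 2 inhibitory), 2 had a gene-end peak, and 9 peaks were left, at 0.835 per Mb, with 5 partner genes; all protein-coding genes had shares of 6.32% and 2.71% (gene-end) and 1.13 per Mb. At a q-value of at most 0.001 there were 5 receptor genes (4 excitatory and 1 inhibitory), 2 with a gene-end peak, and 5 peaks, at 0.464 per Mb, with 4 partner genes, beside 3.55%, 1.44%, and 0.634 per Mb. These background shares cover protein-coding genes of all lengths and are not matched to the receptor genes. The number of receptor genes with a gene-end peak was 2 with a window of 1 kb and 8 with 10 kb, against 4 with 3 kb, and the share of protein-coding genes was 3.28%, 10.8%, and 5.30%. The number with any peak was 15 with 1 kb and 17 with 10 kb (12.0% and 16.3% of protein-coding genes), where excitatory genes stayed at 11 and inhibitory genes rose from 4 to 6. Peak summits, or an overlap of at least 50% of the peak, gave 15 receptor genes with a peak, as in the report. Among ionotropic subunits alone, 8 of 17 excitatory and 3 of 21 inhibitory genes had a peak. At the share of their length classes 5.85 and 5.43 would have one (7.2 and 5.5 with 100 classes). With autosomes alone, an alternative chosen after the data were seen, 11 of 23 excitatory and 4 of 18 inhibitory genes had a peak. Against all RefSeq genes the background share was 7.76%. The 100 length classes were likewise added after the data were seen. No paired analysis was possible because the comparisons rest on 1 peak list.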

Other observations

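Several receptor genes lie beside each other on their chromosomes. In the chromosome 5 cluster of Gabrg1, Gabra2, Gabra4, and Gabrb1, which spans 1400 kb, there were 2 peaks, both in Gabrb1. The chromosome 7 pair Gabrg3 and Gabra5 spans 875 kb and had 2 peaks, both in Gabrg3. The span of 326 kb from Gabra6 to Gabrb2 on chromosome 11 had 1 peak, the one at the 5′ end of Gabrb2. The X-linked cluster of Gabre, Gabra3, and Gabrq had 0 peaks in 586 kb. Between the rho subunit genes Gabrr2 and Gabrr1 on chromosome 4 lay 1 peak with a pileup of 2, too far from both to be counted for either. The glycine receptor gene Glrb neighbors Gria2 on chromosome 3, and the peak nearest to it, at 36213 bp, was the outer Gria2 peak.

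Among genes over 200 kb, 2 of 19 receptor genes (10.5%) had 4 or more peaks, which were Grik4 and Gabbr2, and of the 990 protein-coding genes of this length 33 (3.33%) did. The median length was 427 kb for these receptor genes and 325 kb for these protein-coding genes. Grik4 and Gabbr2 were singled out after their values were seen, and the difference was not tested.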
